A study of Macaca mulatta with 11 samples.

Results

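ASNS, SLC7A11 and GLDC are 3 genes of amino acid supply and breakdown, taken from 14132 genes with a single symbol on the Affymetrix Rhesus Macaque array. They are represented by 4 of the 52766 probe sets tested: 1 for ASNS, 2 for SLC7A11 and 1 for GLDC, each found by its annotated gene symbol. They were singled out because of their levels in these same arrays, so their levels and differences are given as a description, with no test. RNA came from rhesus monkey cumulus cells, somatic cells that surround and feed the oocyte. The pre-maturation group (PM, 4 arrays) holds cells of immature complexes taken after stimulation with FSH (follicle-stimulating hormone) alone. The in vitro group (IVM, 3 arrays) had the same FSH stimulation of the animal and maturation of the complexes in culture. The in vivo group (VVM, 4 arrays) had FSH stimulation and then maturation in the animal after hCG (human chorionic gonadotropin), which stands in for the ovulatory hormone surge. All 3 groups thus come from FSH-stimulated animals, with no unstimulated cycle among them. Nothing in the labels ties a sample to an animal, so spreads and p-values describe these samples only and may be technical. In bulk RNA, fewer cells of a type and less RNA per cell cannot be told apart.

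Asparagine synthetase, encoded by ASNS, makes asparagine from aspartate with glutamine as the nitrogen donor. SLC7A11 (xCT) is the light chain of the antiporter that exports glutamate and imports cystine, the precursor of cysteine and glutathione, with SLC3A2 as its heavy chain. Both genes are known targets of ATF4, the transcription factor made when amino acid shortage or endoplasmic reticulum stress leads to phosphorylation of the translation factor eIF2. GLDC encodes the glycine decarboxylase of the mitochondrial glycine cleavage system, which passes a glycine carbon to folate. Cumulus cells supply the oocyte with amino acids and glutathione precursors through gap junctions, so such genes are of interest for oocyte culture.

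The deposited values are RMA intensities, to which log2 was applied, and all levels below are on that log2 scale. Array medians lay between 5.34 and 5.36 in PM, 5.45 and 5.53 in IVM and 5.43 and 5.49 in VVM. Those of PM were thus below all of the matured groups. All 13 measured cumulus and granulosa markers were above the array median in at least 1 array, and their summed linear intensity was 60800 to 73200 in PM, 50500 to 62500 in IVM and 43900 to 52500 in VVM. Of these markers, 2 were called higher and 6 lower in IVM against PM, and 0 and 8 in VVM against PM. In IVM against VVM 6 were higher and 0 lower. Of all genes, limma called 25.0% higher and 20.9% lower in IVM against PM at an adjusted p under 0.05. These shares were 18.0% and 21.8% in VVM against PM, and 9.06% and 7.63% in IVM against VVM. For 13 leukocyte markers the sums were 1580 to 1780 in PM, 876 to 1120 in IVM and 900 to 6350 in VVM. CSF1R, at 9.95 to 10.21, weighed most in the PM sums and was called lower in IVM (-2.04) and in VVM (-2.57). ITGAM was also called lower than PM in both. Of the 13 markers, 2 were called higher and 2 lower in IVM against PM (15.4% each, beside 25.0% and 20.9% of all genes). In VVM against PM 8 were higher and 2 lower (61.5% and 15.4%, beside 18.0% and 21.8% of all genes). LYZ, TYROBP and MAMU-DRA passed the test as lower in IVM than in VVM, and no marker was at 0. Oocyte markers summed to 818 to 2250 in PM, with PM 1 the highest, 929 to 982 in IVM and 841 to 1270 in VVM. Theca and stroma markers summed to 389 to 515, 712 to 1510 and 557 to 1540. Of these 7 markers, 5 were called higher and 0 lower in IVM against PM (71.4% higher, beside 25.0% of all genes). In VVM against PM 2 were higher and 1 lower, and in IVM against VVM 1 and 0. Of 4 red blood cell markers, HBB was lower in IVM than in VVM (-2.76, limma adjusted p = 0.000933) and than in PM, and higher in VVM than in PM (1.77, adjusted p = 0.00194). HBA, ALAS2 and AHSP were called in no comparison, and between VVM and PM they differed by -0.03, -0.12 and -0.12. HBA in IVM lay below every array of the other groups, by -1.49 against VVM (limma adjusted p = 0.133) and -1.52 against PM (adjusted p = 0.0598). ALAS2 and AHSP differed by -0.24 and 0.03 for IVM against VVM and by -0.37 and -0.09 for IVM against PM. Of 8 endothelial markers, VWF was lower in IVM than in VVM (-1.76, adjusted p = 0.0466) and higher in VVM than in PM (2.32, adjusted p = 0.00354). ERG went the other way against PM, by -2.63 in VVM (limma adjusted p = 0.00167) and -3.67 in IVM (adjusted p = 0.000314). In all, 2 endothelial markers were called higher and 1 lower in VVM against PM (25% and 12.5%, beside 18.0% and 21.8% of all genes). In IVM against PM 1 was higher and 1 lower (12.5% each, beside 25.0% and 20.9%). The high leukocyte sums belong to VVM 2 and VVM 3, where the mean of LYZ, TYROBP, CD14 and PTPRC was 7.48 and 8.70 against 5.41 in VVM 1 and 5.36 in VVM 4. That mean was 4.23 to 4.56 in PM and 4.50 to 4.70 in IVM. Bacterial hybridization controls, added after labelling, were at 9.89 to 10.28 in PM, 10.41 to 11.32 in VVM and 11.46 to 12.18 in IVM, so their level separated the groups completely and cannot be told apart from maturation. The difference between the 3 prime and 5 prime probe sets of GAPDH and ACTB, a measure of transcript integrity, was 3.20 to 3.45 in PM, 3.67 to 4.36 in IVM and 3.44 to 3.90 in VVM.

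ASNS was highest after culture. It stood at 8.90, 10.29 and 11.57 in IVM 1, 2 and 3. In PM it stood at 6.09, 8.11, 6.76 and 6.42, and in VVM at 6.66, 5.44, 6.34 and 6.23. Every IVM array lay above every array of the other groups, and the arrays of PM and VVM overlapped. The group means were 10.25 ± 1.34 (SD, n = 3) in IVM, 6.85 ± 0.89 (SD, n = 4) in PM and 6.17 ± 0.52 (SD, n = 4) for the VVM arrays. The log2 difference was 4.09 ± 0.60 (SE) between IVM and VVM, a fold of 17.0, and only 2 of the 14132 genes had a larger positive difference there. Between IVM and PM the log2 difference was 3.41 ± 0.60, a fold of 10.6, with 40 genes further up. Between VVM and PM it was -0.68 ± 0.55, smaller than the SD within PM. With 1 array left out, that small difference ranged from -0.93 (without PM 1) to -0.26 (without PM 2).

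SLC7A11 followed the same pattern in its brighter probe set, MmugDNA.22390.1.S1_at. Here the IVM arrays stood at 6.51, 8.73 and 9.39. The PM arrays stood at 3.67, 5.24, 3.93 and 3.94 and the VVM arrays at 4.12, 4.60, 4.47 and 3.84. Each PM and VVM value was below the median of its array, while the 3 IVM values were above it, so a fold against PM or VVM is at best a lower bound. Group means were 8.21 ± 1.51 (SD, n = 3) in IVM, 4.20 ± 0.71 (SD, n = 4) in PM and 4.26 ± 0.34 (SD, n = 4) for VVM. The log2 differences were 3.95 ± 0.58 (SE) between IVM and VVM and 4.01 ± 0.58 between IVM and PM, folds of 15.5 and 16.1. VVM and PM differed by 0.06 ± 0.54, with overlapping arrays. The sign of that value turned without PM 1 (-0.11).

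The second SLC7A11 probe set, MmugDNA.20170.1.S1_at, gave the same order at a fraction of the size. It was below the array median in all 11 arrays. In IVM it read 4.62, 4.41 and 4.22, in PM 4.04, 3.77, 3.86 and 3.77, and in VVM 4.03, 4.02, 4.12 and 3.91. The IVM arrays were again the highest, with a gap of 0.10 to the nearest VVM array and 0.18 to the nearest PM array. Its log2 differences were 0.40 ± 0.12 (SE) for IVM against VVM, 0.56 ± 0.12 for IVM against PM and 0.16 ± 0.11 for VVM against PM. After centring of each array on its median, the difference between IVM and PM was 0.41, where the median difference of all genes had been 0.12. Within IVM this probe set ran opposite to the brighter one, being highest in IVM 1 and lowest in IVM 3. Averaging both probe sets gave SLC7A11 a log2 difference of 2.17 for IVM against VVM and 2.28 for IVM against PM.

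**Figure D1:**
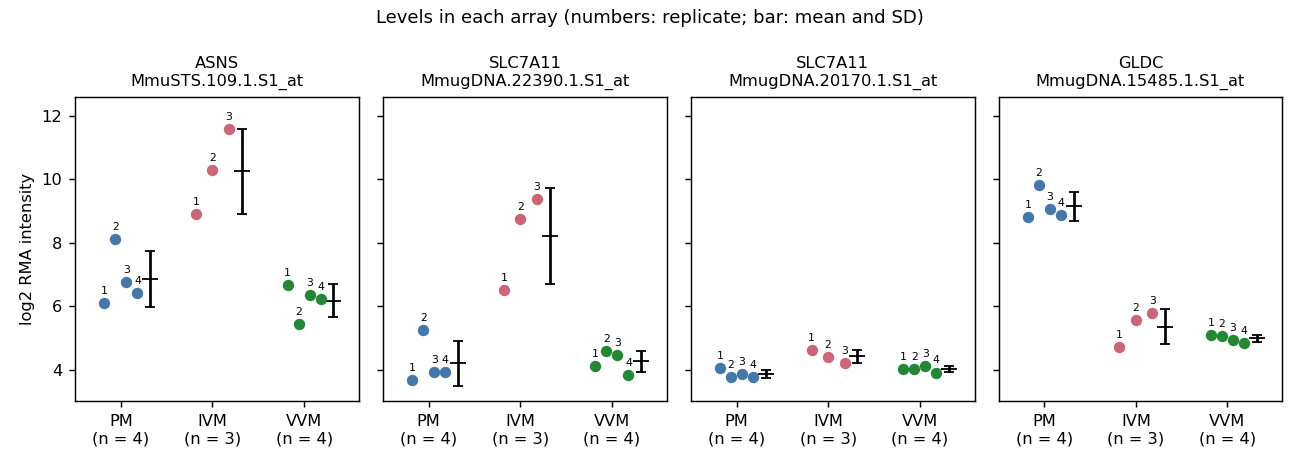
Log2 RMA intensity of the 4 probe sets of ASNS, SLC7A11 and GLDC in each array (points, numbered by replicate), with the mean and SD of each group (bars). ASNS and the brighter SLC7A11 probe set were highest in the 3 IVM arrays, the dim SLC7A11 probe set moved by at most 0.56 between group means, and GLDC was highest in the 4 PM arrays.

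GLDC had another pattern, high before maturation and low after it by either route. The PM arrays stood at 8.81, 9.83, 9.05 and 8.88. The IVM arrays stood at 4.72, 5.55 and 5.77 and the VVM arrays at 5.10, 5.05, 4.93 and 4.85. The lowest PM array lay 3.03 above the highest IVM array and 3.71 above the highest VVM array, while IVM and VVM overlapped. The mean before maturation was 9.14 ± 0.47 (SD, n = 4). After maturation it was 5.35 ± 0.55 (SD, n = 3) for IVM, while VVM averaged 4.98 ± 0.11 (SD, n = 4). The log2 difference was -3.79 ± 0.27 (SE) for IVM against PM, a fold of 13.9, and -4.16 ± 0.25 for VVM against PM, a fold of 17.8. Both matured groups lay near or below the array medians, from -0.80 to 0.32 relative to them, so these folds are at best lower bounds. In VVM against PM only 7 genes had a larger negative difference, and in IVM against PM 35 did. Between IVM and VVM the difference was 0.37 ± 0.27, below the SD within IVM, and it went from 0.15 without IVM 3 to 0.68 without IVM 1.

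Counted over the 3 genes, with the brighter probe set for SLC7A11, the arrays of IVM and VVM did not overlap for 2 genes, those of IVM and PM for 3, and those of VVM and PM for 1. Over all 14132 genes the arrays did not overlap for 28.6%, 50.3% and 41.9% in these comparisons. As the members were chosen on these differences, nothing is read from their count. The 3 comparisons share arrays in pairs and are not independent of each other.

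The order of the arrays within each group was compared over the 3 genes. IVM 1 was the lowest and IVM 3 the highest IVM array for ASNS, for the brighter SLC7A11 probe set and for GLDC, with ranges of 2.68, 2.88 and 1.05. The same order holds for 17.0% of all genes. PM 2 was the highest PM array for the same 3 genes, as it is for 24.9% of all genes. As orders this common are shared by many genes, no joint movement is read from them. In VVM the order differed. VVM 2 was the lowest VVM array for ASNS (5.44) and the highest for SLC7A11 (4.60), while GLDC was highest in VVM 1 (5.10). IVM 1 also had the highest 3 prime to 5 prime difference, 4.36 against 3.68 in IVM 2 and 3.67 in IVM 3. With that measure as a covariate the log2 difference between IVM and VVM was 4.50 for ASNS and 4.40 for SLC7A11, larger than without it. The spread within IVM also set the size of both values: ASNS differed between IVM and VVM by 4.76 without IVM 1 and by 3.43 without IVM 3, and SLC7A11 by 4.80 and 3.36. With PM 1, VVM 2 and VVM 3 left out, which removes the arrays with the most leukocyte or oocyte marker signal, the differences were 3.81 for ASNS, 4.23 for SLC7A11 and 0.37 for GLDC.

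The genes whose profile over the 11 arrays was nearest to each member were found by the root mean square distance of log2 values, each gene centred on its own mean. SLC7A11, by its brighter probe set alone, was the nearest of all genes to ASNS, at a distance of 0.57. UNC5B, a netrin receptor, was next at 0.71. It was nearer still to SLC7A11, at 0.51, and its means were 6.82 in PM, 10.44 in IVM and 6.65 in VVM. PCK1, the phosphoenolpyruvate carboxykinase of gluconeogenesis, and ST8SIA5, a sialyltransferase, followed for both genes, at 0.88 each from ASNS and 0.89 each from SLC7A11. KRT19, a keratin, was the next for ASNS (0.91), and KCNK3, a potassium channel, the next for SLC7A11 (0.90). In UNC5B, PCK1, KRT19 and KCNK3, IVM 1 was the lowest and IVM 3 the highest IVM array, while in ST8SIA5 IVM 2 was the lowest. GLDC lay far from both other members, at 2.89 from ASNS and 3.14 from SLC7A11. Its nearest genes were ABLIM1, an actin-binding protein (0.43), CORO2A, a coronin (0.44), CCNE2, cyclin E2 (0.45), OBI1 (0.46) and GNB5, a G protein beta subunit (0.47). CCNE2 lay between 6.44 and 7.47 in PM, with means of 3.41 in IVM and 3.14 in VVM. These genes were found by their likeness in the same arrays, which is a description only.

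**Figure D2:**
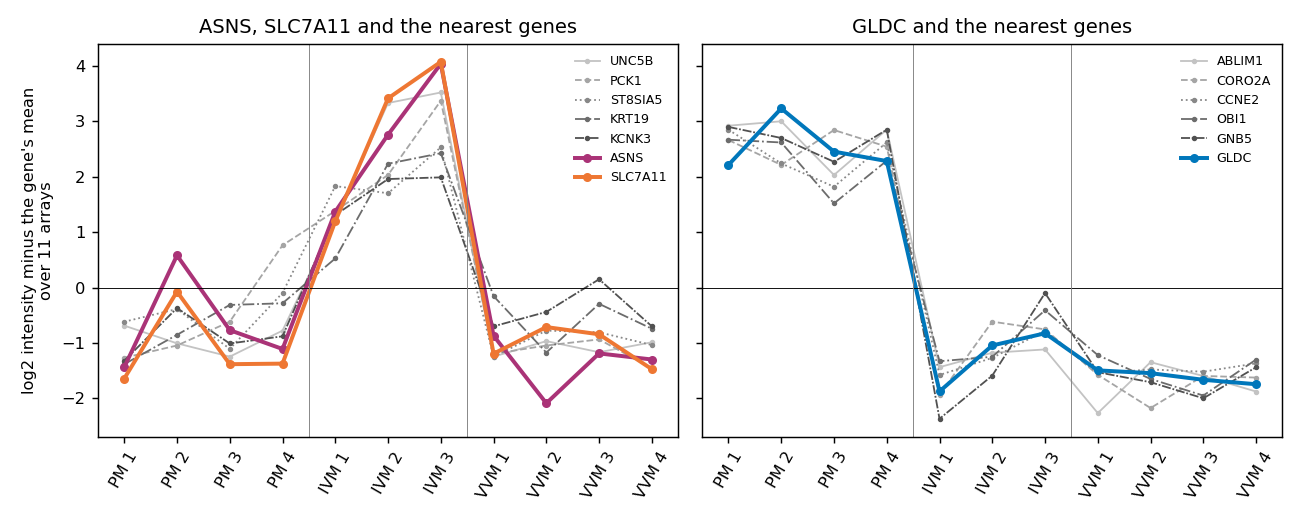
Log2 intensity of each gene minus its own mean over the 11 arrays, for ASNS and SLC7A11 with their nearest genes (left) and for GLDC with its nearest genes (right); coloured lines are the members and grey lines the other genes. The left profiles peak in the IVM arrays and the right ones drop from PM to both matured groups. SLC7A11 is shown by its brighter probe set.

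The rest of the pathway was read from 6 gene lists of amino acid handling, which leave out the 3 members. They name 140 genes, of which 100 were measured, and these were tested with limma over all probe sets at a Benjamini-Hochberg adjusted p under 0.05. In IVM against VVM 10 of the 100 were higher and 9 lower, where 16.7% of all genes were called, 9.06% as higher and 7.63% as lower. In IVM against PM 26 were higher and 24 lower, where 45.9% of all genes were called, 25.0% and 20.9% in these directions. In VVM against PM 22 were higher and 26 lower, where 39.8% of all genes were called, 18.0% and 21.8%. All of these shares are near those of all genes. Median log2 differences of the 100 genes were 0.13, 0.07 and 0.05, and those of all genes 0.08, 0.12 and 0.04. Centring the arrays on their medians made the split 18 higher and 25 lower for IVM against PM and 16 and 30 for VVM against PM. Over all genes centring gave 2078 higher and 3406 lower for IVM against PM and 1708 and 3530 for VVM against PM. Without IVM 2, the count lower in IVM than in VVM went from 9 to 4, and that of all genes from 1078 to 620. With the hybridization controls as a covariate, 2 were higher and 2 lower in IVM against VVM, where 2.33% of all genes were then called, and 0 and 1 in IVM against PM, where 0.0142% were. Of the called differences of the genes named below, 3 of 17 kept their call with that covariate in IVM against VVM (TRIB3, ALDH1L1 and BACH1), 1 of 27 in IVM against PM (ALDH1L1) and 13 of 31 in VVM against PM, AMT and GCLC among them. With the leukocyte level as a covariate, 7 of the 17 calls between IVM and VVM were lost, namely PHGDH, GLUL, GLUD1, ALDH18A1, GGCT, SLC25A22 and SLC38A9, and 12 of the 31 between VVM and PM. With the 3 prime to 5 prime difference, 17 of the 27 calls between IVM and PM were lost, ATF4, DLD, SLC1A4 and SLC16A10 among them. The part of these measures in the results was not tested further. Below, a range in brackets after a call that was lost is the range of the log2 difference over all fits with 1 array left out. DLD in IVM and VVM, SLC16A10 in PM, and SLC38A4 in IVM lay below the array median in every array of the group, so differences from these levels are at best lower bounds.

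Among the regulators and classic targets of the amino acid response, TRIB3, a pseudokinase induced by ATF4 that feeds back on it, had levels of 6.66, 7.25 and 7.66 in IVM, 4.98 to 5.46 in PM and 5.66 to 5.85 in VVM. The groups did not overlap, and it rose in IVM by 1.44 ± 0.20 (SE) over VVM (limma, adjusted p = 0.00159) and by 1.91 ± 0.20 over PM (adjusted p = 6.24e-05). One of its 2 probe sets was called in the first comparison and both in the second. ATF4 itself was lower in IVM than in PM (-0.85 ± 0.21, adjusted p = 0.008) and did not differ detectably between IVM and VVM (-0.16 ± 0.21, adjusted p = 0.672). DDIT3, a transcription factor of prolonged stress, stood at 8.35 ± 0.63 in IVM, 8.34 ± 0.57 in VVM and 7.51 ± 0.77 in PM and was called in no comparison. CHAC1, an enzyme that breaks down glutathione, was at 7.18 to 8.40 in IVM and 5.94 to 6.82 in VVM, a difference of 1.51 ± 0.83 that did not pass (adjusted p = 0.273), and its PM arrays ran from 6.44 to 10.87, the last in PM 2. CEBPB, a partner of ATF4 and a factor of ovulation, rose over PM in both matured groups, by 2.21 ± 0.34 in IVM and 2.42 ± 0.31 in VVM. EIF2AK3 (PERK), the eIF2 kinase of endoplasmic reticulum stress, was lower in IVM than in VVM by 1.09 ± 0.30 on the log2 scale (adjusted p = 0.0379). That call was lost without PM 1, PM 3, VVM 1, VVM 3, VVM 4 or any IVM array, with differences from -1.30 to -0.86.

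Of the 25 genes in this list 18 were measured. EIF2AK4 (GCN2), the eIF2 kinase that senses amino acid shortage, SESN2, PPP1R15A and STC2 were not among them. Of the measured genes, 1 was higher and 1 lower in IVM against VVM, namely TRIB3 and EIF2AK3, and 7 were higher and 4 lower in IVM against PM. The lower count was 2 without PM 4 or without IVM 2. NUPR1, a stress-induced nuclear protein, was at 8.73 ± 0.41 in IVM and 6.82 ± 1.40 in PM, a difference of 1.91 ± 0.63 (adjusted p = 0.0317) that was lost without any of PM 1, PM 2, PM 3 and the 3 IVM arrays (1.55 to 2.58). JDP2, a repressor of the AP-1 family, fell from PM by 1.67 ± 0.34 in IVM and by 1.71 ± 0.31 in VVM. In VVM against PM, 1 gene was higher, CEBPB, and 4 were lower, ATF4 among them (-0.69 ± 0.19, adjusted p = 0.0185), which was lost without VVM 3 (-0.63, adjusted p = 0.0501). The higher count was 2 or 3 without PM 3, PM 4 or any single IVM array.

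**Figure D3:**
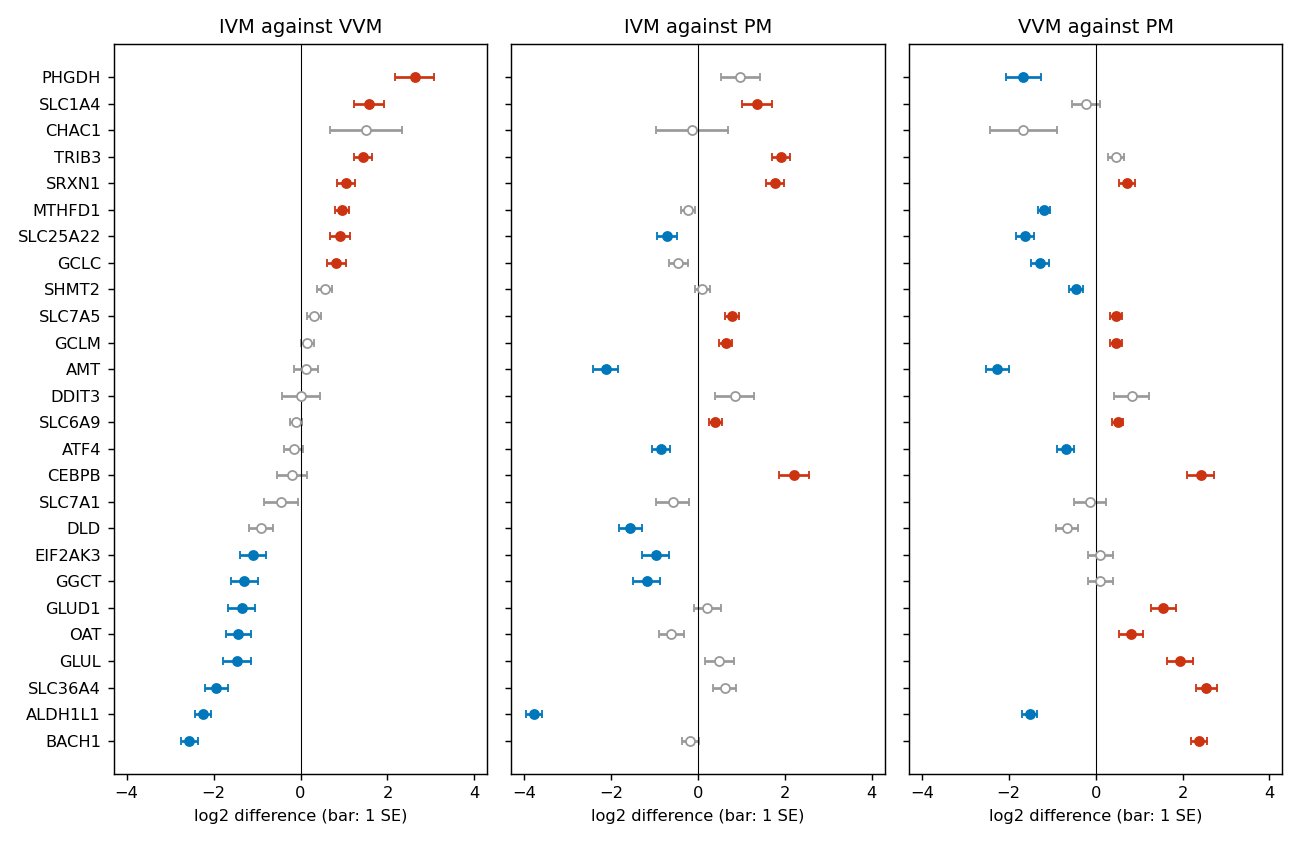
Log2 differences of 26 pathway genes in the 3 comparisons, with 1 standard error of the limma fit; filled red points were called higher, filled blue points lower and open grey points were not called at an adjusted p of 0.05. PHGDH, SLC1A4, TRIB3 and SRXN1 lie highest among the genes called higher in IVM than in VVM, and BACH1 and ALDH1L1 lowest among those called lower.

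Near ASNS in metabolism, 15 genes of asparagine, aspartate and glutamine handling were measured. For IVM over VVM the calls were 2 up and 3 down. GLUL, glutamine synthetase, which makes the amide donor that ASNS uses, was at 10.14, 9.14 and 9.35 in IVM and at 11.13, 11.09, 11.10 and 10.69 in VVM. It was lower in IVM by 1.46 ± 0.33 on the log2 scale (adjusted p = 0.0161), in 1 of its 5 probe sets, and the call was lost without IVM 2 (-1.25 to -1.75 over all arrays left out, adjusted p up to 0.0763). OAT, ornithine aminotransferase, was lower by 1.43 ± 0.29 (adjusted p = 0.0102) and GLUD1, glutamate dehydrogenase, by 1.35 ± 0.31 (adjusted p = 0.017), each in 1 of 2 probe sets, and GLUD1 was lost without IVM 2 or IVM 3 (-1.74 to -1.03). From PM to VVM, GLUL rose by 1.94 ± 0.30 and GLUD1 by 1.56 ± 0.29 on the log2 scale. ALDH18A1, which starts proline synthesis from glutamate, was higher in IVM than in VVM by 0.89 ± 0.18 (adjusted p = 0.0106). It fell from PM in both groups, by 0.92 ± 0.18 in IVM and by 1.81 ± 0.17 in VVM. ASRGL1, an asparaginase that splits asparagine, rose over PM by 1.68 ± 0.28 in IVM and 2.33 ± 0.26 in VVM, in both of its probe sets. ADSS2, which uses aspartate in purine synthesis, fell by 1.52 ± 0.33 and 2.02 ± 0.30. Against PM, IVM had 3 of these genes up and 5 down (3 down without PM 1 or IVM 1), and VVM had 5 up and 4 down (3 up without PM 3, PM 4 or VVM 3). The counts of the first comparison went to 1 higher without IVM 2, IVM 3 or VVM 3 and to 1 lower without IVM 2.

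Serine is made into glycine, and PHGDH, the first enzyme of serine synthesis, differed most in its list between IVM and VVM. Its levels were 9.24, 10.72 and 11.70 in IVM, 7.61, 8.08, 7.55 and 8.45 in VVM and 9.42, 9.76, 9.42 and 9.74 in PM. IVM lay above VVM in every array, by 2.63 ± 0.45 (SE, adjusted p = 0.00396), and overlapped PM (0.97 ± 0.45, adjusted p = 0.103). That second difference was 0.40 without IVM 3, and 1.62 without IVM 1, where it passed. VVM fell below PM by 1.66 ± 0.41 (adjusted p = 0.0107). SHMT2, which turns serine into glycine in mitochondria, was at 8.07 ± 0.07 in PM, 8.17 ± 0.42 in IVM and 7.61 ± 0.14 in VVM. Its difference of 0.56 ± 0.17 between IVM and VVM did not pass (adjusted p = 0.0604). The call of VVM below PM (-0.46 ± 0.16, adjusted p = 0.0473) was lost without IVM 1, any PM array, VVM 1, VVM 2 or VVM 3 (-0.52 to -0.42) and with the replicate block. MTHFD1, a folate enzyme, was higher in IVM than in VVM by 0.95 ± 0.16 (adjusted p = 0.00349) and fell from PM to VVM by 1.19 ± 0.14. ALDH1L1, which oxidises formyl folate to carbon dioxide, went from 10.14 ± 0.24 in PM to 6.37 ± 0.30 in IVM and 8.62 ± 0.21 in VVM, with log2 differences of -3.77 ± 0.18 and -1.52 ± 0.17, and it was lower in IVM than in VVM by 2.25 ± 0.18 (adjusted p = 9.26e-05). MTR, methionine synthase, rose over PM by 1.37 ± 0.25 in IVM and 2.12 ± 0.23 in VVM. MAT2A, which makes S-adenosylmethionine, had a difference from PM of -1.63 ± 0.27 in IVM and -1.17 ± 0.25 in VVM, but another of its 4 probe sets was called in the opposite direction in IVM. TYMS, thymidylate synthase, fell from PM to VVM by 2.23 ± 0.42.

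Of the 16 measured serine, glycine and folate genes, IVM against VVM had 2 called up and 1 down, IVM against PM had 3 and 3, and VVM against PM had 3 and 7. Without IVM 3 or without VVM 2, 2 were lower in IVM than in VVM. Without IVM 3, 5 were higher in IVM than in PM. With PM 1, VVM 2 and VVM 3 left out, 4 were lower in VVM than in PM. PSAT1, PSPH and MTHFD2, also in this list, were not measured.

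GLDC works with AMT, GCSH and DLD in the glycine cleavage system, whose carrier protein needs lipoic acid made by LIAS. LIPT1, also in this list, attaches lipoic acid to other enzyme complexes. AMT, the aminomethyltransferase that hands the carbon to folate, stood at 9.66, 9.80, 9.11 and 10.02 in PM, at 7.18, 7.53 and 7.83 in IVM and at 7.62, 7.61, 6.63 and 7.68 in VVM. Both matured groups lay below every PM array, and AMT fell by 2.13 ± 0.28 (SE) in IVM (adjusted p = 0.000255) and by 2.26 ± 0.26 in VVM (adjusted p = 0.000116), in both of its probe sets. Its difference between IVM and VVM was 0.13 ± 0.28 (adjusted p = 0.819). DLD, the dihydrolipoamide dehydrogenase shared with other complexes, fell by 1.56 ± 0.27 in IVM (adjusted p = 0.00123), and its difference of -0.66 ± 0.25 in VVM did not pass (adjusted p = 0.0679). LIPT1 fell by 1.77 ± 0.30 in VVM (adjusted p = 0.00128). In IVM its difference of -0.93 ± 0.33 (adjusted p = 0.041) was lost without PM 1, PM 4, IVM 1, IVM 2, VVM 2, VVM 3 or VVM 4 (-1.23 to -0.62) and with the replicate block, and it was 0.87 with the hybridization controls as a covariate. LIAS was at 6.04 ± 0.16 in PM, 5.39 ± 0.23 in IVM and 5.73 ± 0.06 in VVM and was lower in IVM than in PM (-0.66 ± 0.13, adjusted p = 0.0028). All 4 measured genes of this list were thus lower in IVM than in PM and 2 in VVM than in PM, with none higher, beside 20.9% and 21.8% of all genes. With 1 array left out, the count in IVM went down to 3, as without PM 1, and that in VVM was 4 without PM 2. None of the 4 was called between IVM and VVM, where 2, 1 and 1 were lower without IVM 3, PM 2 and VVM 3. GCSH carried no single symbol and is not analysed here.

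**Figure D4:**
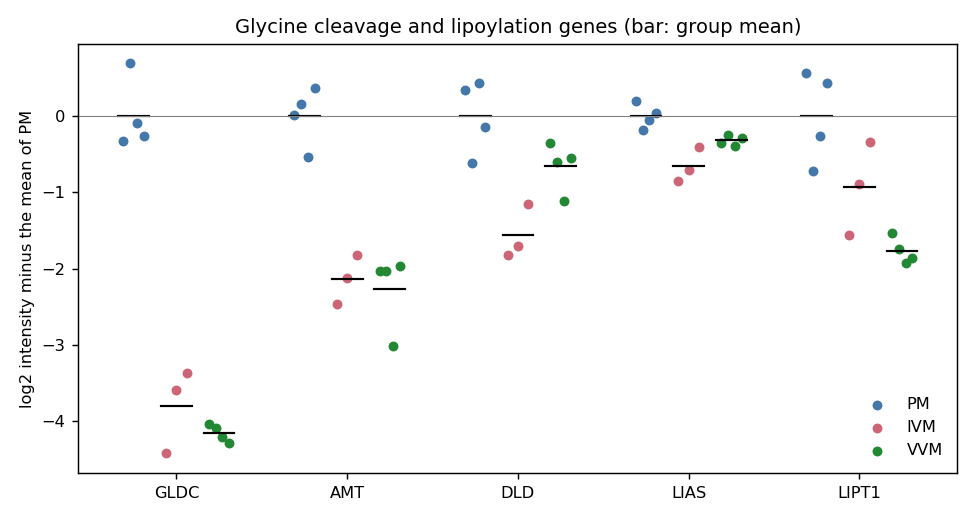
Log2 intensity of GLDC and of the 4 other measured glycine cleavage and lipoylation genes in each array, relative to the mean of the PM arrays, with group means as bars. GLDC, AMT and LIAS lie below every PM array in all 7 matured arrays, with the smallest differences in LIAS.

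Cysteine and glutathione genes were read beside SLC7A11. Its partner SLC3A2 and the cysteine-making enzymes CBS and CTH carried no single symbol and are not analysed here. GCLC, the catalytic subunit of glutamate-cysteine ligase, was at 11.96, 12.32 and 12.41 in IVM, 10.93, 11.62, 11.93 and 11.17 in VVM and 12.49 to 12.84 in PM. It fell by 1.28 ± 0.20 (SE) from PM to VVM (adjusted p = 0.000792). It was higher in IVM than in VVM by 0.82 ± 0.22 (adjusted p = 0.0347, 1 of 5 probe sets), a call that ended on leaving out IVM 2, IVM 3, VVM 1 or VVM 4 (0.66 to 0.99). Its regulatory subunit GCLM rose over PM by 0.64 ± 0.15 in IVM and by 0.47 ± 0.13 in VVM, the latter lost without PM 1, PM 2 or VVM 2 (0.39 to 0.53) and with arrays centred on their medians. SRXN1, which repairs oxidised peroxiredoxins, was at 9.76, 9.70 and 9.50 in IVM, 8.01 to 9.06 in VVM and 7.75 to 8.02 in PM, higher in IVM than in VVM by 1.05 ± 0.20 (adjusted p = 0.00763) and than in PM by 1.77 ± 0.20. BACH1, a repressor of antioxidant genes, stood between 9.86 and 9.98 in VVM against 7.16 to 7.75 in IVM and at most 7.81 in PM. It was lower in IVM than in VVM by 2.56 ± 0.20 (adjusted p = 9.26e-05, 1 of 2 probe sets) and rose from PM to VVM by 2.38 ± 0.19 in both probe sets. Between IVM and PM it differed by -0.18 ± 0.20 (limma adjusted p = 0.496), while its other probe set was called higher in IVM. GGCT, which releases oxoproline from glutathione breakdown products, was lower in IVM than in VVM by 1.29 ± 0.31 and than in PM by 1.18 ± 0.31, the first of these lost without IVM 1, IVM 2 or VVM 1 (-1.36 to -1.09). GGT7, of the gamma-glutamyltransferase family, had differences from PM of -1.12 ± 0.32 in IVM and -1.14 ± 0.30 in VVM, the first lost without IVM 1 or IVM 2 (-1.47 to -0.90). Of 14 measured genes, 3 were called up and 2 down for IVM against VVM, 3 and 2 for IVM against PM, and 3 and 3 for VVM against PM. The lower count was 1 without IVM 1 or IVM 2 in both comparisons of IVM, and also 1 without VVM 1 in the first, and it was 4 without IVM 3 in the second.

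Of 33 other amino acid transporters, IVM had 2 up and 2 down against VVM, with 1 up without IVM 2, VVM 1 or VVM 4 and 1 down without IVM 2 or VVM 3. SLC1A4, a carrier of serine, alanine and cysteine, was at 10.29, 10.42 and 11.32 in IVM, 8.45, 9.26, 9.95 and 8.71 in VVM and 8.98, 9.32, 9.39 and 9.60 in PM. It was higher in IVM by 1.58 ± 0.34 (SE) over VVM (adjusted p = 0.0134) and by 1.35 ± 0.34 over PM (adjusted p = 0.00986), with 1 of its 4 probe sets called in that direction each time and 1 called in the opposite direction against PM. SLC25A22, a mitochondrial glutamate carrier, was higher by 0.90 ± 0.23 (adjusted p = 0.0282), not kept on leaving out IVM 2, IVM 3, VVM 1 or VVM 4 (0.80 to 1.07) and with the replicate block. It fell from PM to VVM by 1.63 ± 0.21. Its difference of -0.72 ± 0.23 between IVM and PM was lost without PM 1, PM 3, PM 4 or IVM 1 (-0.92 to -0.56) and with the replicate block. SLC36A4, a transporter of proline and tryptophan, was lower in IVM than in VVM by 1.94 ± 0.26 (adjusted p = 0.00113) in both probe sets and rose from PM to VVM by 2.55 ± 0.24. SLC38A9, the lysosomal arginine sensor of the mTORC1 pathway, fell from PM by 2.16 ± 0.22 in IVM and by 1.32 ± 0.20 in VVM. Its difference of -0.84 ± 0.22 between IVM and VVM ended on leaving out IVM 1, IVM 2, VVM 2 or VVM 3 (-0.94 to -0.72) and with the replicate block.

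Against PM, 10 of the 33 transporters were higher and 6 lower in each matured group. The higher count in IVM was 4 with each array centred on its median and 5 without IVM 1. SLC16A10, an aromatic amino acid carrier, had the largest fitted difference of the list against PM, from 3.63 ± 0.29 in PM to 6.69 ± 1.13 in IVM and 8.24 ± 0.93 in VVM, rises of 3.06 ± 0.53 (adjusted p = 0.00129) and 4.61 ± 0.50 (adjusted p = 7.15e-05) from PM levels below the array median. SLC7A5, which imports large neutral amino acids, rose by 0.78 ± 0.16 in IVM and by 0.47 ± 0.14 in VVM, the latter lost without PM 1, PM 4, VVM 2, VVM 3 or VVM 4 (0.39 to 0.59) and with centring. SLC6A9, the glycine transporter GLYT1, was below the array medians at 4.51 ± 0.25 in PM, 4.91 ± 0.07 in IVM and 5.01 ± 0.14 in VVM. Its rise over PM of 0.40 ± 0.14 in IVM was lost with centring and without PM 1, PM 4, VVM 1, VVM 2 or any IVM array (0.30 to 0.48), as it was with the replicate block. That of 0.51 ± 0.13 in VVM passed with any 1 array left out, but was lost with quantile normalization, with each of the 3 covariates, at a 2-fold threshold and without PM 1, VVM 2 and VVM 3 together. SLC7A1, a cationic amino acid carrier, was at most 5.36 and was called in no comparison. SLC38A6 fell by 1.71 ± 0.26 in IVM and by 2.04 ± 0.24 in VVM. SLC38A4 had differences of -2.17 ± 0.44 and -1.47 ± 0.41, the latter lost without PM 3 (-1.14 to -1.87, adjusted p up to 0.0519), and another of its 4 probe sets was called in the opposite direction in IVM.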

How the data were processed

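RNA of 11 cumulus cell samples was amplified in repeated rounds, per the labels' protocols, and hybridized to 1 array each; such amplification favours 3 prime ends. The authors deposited linear intensity values made with Affymetrix Expression Console and RMA, per the submitters' processing notes, with no versions or settings; RMA equalises the arrays' distributions, which can compress or shift small differences. All values were above 0, and log2 was taken with no pseudocount. The 99 control probe sets were left out. Symbols came from the array annotation, updated through RefSeq gene identifiers for 24629 of 25330 annotation rows. A gene is its single-symbol probe set with the highest mean log2 value. limma 3.58.1 in R 4.3.3 fitted 3 group means over 52766 probe sets (8 residual and 3.30 prior degrees of freedom), with two-sided p adjusted by Benjamini-Hochberg per comparison. The number of arrays limits the precision. Signal over background was not used here. Named genes were the members, a fixed set of 26 genes (16 measured), the 3 largest called differences per list and comparison, and the 5 nearest genes per member; LIAS was named after its values were seen. The members and lists were chosen with earlier results of these data known. Alternatives changed the scaling, filters, probe set, prior, weights, covariates, threshold and arrays; 1, leaving out PM 1, VVM 2 and VVM 3, was chosen after seeing the data. For arrays that carry the same replicate number, residuals had r from -0.107 to 0.101, and the fit therefore has no replicate term. No sequence of the members was held in the files used here.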

Additional observations from a re-analysis of the deposited data

Results flagged for a closer look

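Within the groups of 4 arrays, 1 array stood apart from the other 3 by more than Dixon's critical value in 5 of 88 cases examined, where chance gives about 1 in 20. All 5 were in VVM. DDIT3 was at 7.49 in VVM 4 against 8.58 to 8.71 in the others. GLUL was at 10.69 in VVM 4 against 11.09 to 11.13. AMT was at 6.63 in VVM 3 against 7.61 to 7.68. ADSS2 was at 8.68 in VVM 1 against 9.05 to 9.10. GGCT was at 10.93 in VVM 1 against 10.10 to 10.17. None of the 4 probe sets of ASNS, SLC7A11 and GLDC had such an array.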

How the results depend on the processing

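The log2 differences of ASNS and SLC7A11 in IVM against VVM and against PM, and those of GLDC against PM, kept their sign in all alternatives run. With 1 array left out, ASNS ranged from 3.43 to 4.76 against VVM and from 2.75 to 4.09 against PM. The brighter SLC7A11 probe set ranged from 3.36 to 4.80 and from 3.42 to 4.86. GLDC ranged from -4.01 to -3.48 in IVM and from -4.27 to -3.93 in VVM. With the hybridization controls as a covariate, ASNS was 5.20 for IVM against PM and turned to 0.25 for VVM against PM, and the dim SLC7A11 probe set was 0.34 for IVM against PM. With the 3 prime to 5 prime covariate, IVM against PM gave 4.51 for ASNS, 5.22 and 0.35 for the SLC7A11 probe sets and -3.32 for GLDC. Centring gave the dim probe set 0.41 and quantile normalization 0.39. The mean of both SLC7A11 probe sets gave 2.17 against VVM and 2.28 against PM. In the main fit, 1280 of all genes were called higher and 1078 lower for IVM against VVM. These counts were 3539 and 2953 for IVM against PM, and 2548 and 3074 for VVM against PM. With the hybridization controls as a covariate, 2 pathway genes were higher and 2 lower for IVM against VVM (197 and 132 of all genes). They were 0 and 1 for IVM against PM (0 and 2), and 6 and 9 for VVM against PM (683 and 894). With the 3 prime to 5 prime covariate they were 9 and 6 for IVM against PM (1085 and 1357 of all genes). For VVM against PM 12 were then higher (1325 of all genes). With the leukocyte covariate 6 were higher for IVM against VVM (583 of all genes). For VVM against PM 10 were then higher and 16 lower (929 and 1532 of all genes). At no less than 2-fold, 4 and 8 were called for IVM against VVM (442 and 686 of all genes), 9 and 13 for IVM against PM (718 and 1810), and 10 and 21 for VVM against PM (798 and 1603). With PM 1, VVM 2 and VVM 3 left out, 6 were higher for IVM against VVM (657 of all genes). For VVM against PM 13 and 17 were then called (1153 and 1872 of all genes). With 1 array left out, the count lower in IVM than in VVM ranged from 4 without IVM 2 to 11 without IVM 3. Of all genes, 620 and 1121 were lower in these fits. EIF2AK3 (0.24, adjusted p = 0.928) and LIPT1 (0.87, adjusted p = 0.632) turned sign for IVM against PM with the hybridization controls as a covariate. The cause of these shifts was not tested. The replicate block gave 8 and 9 calls for IVM against VVM (1035 and 906 of all genes). It gave 26 and 22 for IVM against PM (2914 and 2694), and 19 and 25 for VVM against PM (2207 and 2948). Over the 40 named pathway genes, 270 of 1935 values for called differences lost the call and 2 turned sign.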
